A study of Homo sapiens with 2 samples.

Results

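The 32 genes of sterol and fatty acid synthesis described here were taken by symbol from a fixed list of enzymes and regulators, and all 32 were found among the 56638 genes of the deposited tables. They comprise 18 enzymes that lead from acetyl-CoA to cholesterol, 6 genes that sense or carry sterol or regulate the pathway, and 8 enzymes of fatty acid synthesis and desaturation. The RNA came from TFK1, an established human cholangiocarcinoma (bile duct cancer) cell line, labelled as untreated. Cells with a knockdown of MBD2 (shMBD2) were compared with negative control cells (shNC) in 1 RNA-seq library each. Per the study's methods, its shRNAs were delivered by lentivirus in a plko.1 vector and infected cells were selected with puromycin or G-418. By their titles both libraries come from shRNA cells, and the labels do not say which hairpin against MBD2 was sequenced. MBD2 reads methylated CpG sites, and the study asked which genes it regulates in cholangiocarcinoma cells.

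Cholesterol is built from acetyl-CoA by way of mevalonate, isoprene units, squalene and lanosterol, and fatty acids are built from the same acetyl-CoA by way of malonyl-CoA. The genes of both routes are activated by the SREBP transcription factors, which SREBF1 and SREBF2 encode. SREBP precursors are held in the endoplasmic reticulum by SCAP and the INSIG proteins when sterol is plentiful, and SCAP escorts them to the Golgi for cleavage when sterol is scarce. SREBP-2 is best known for sterol genes, and the SREBP-1c form of SREBP-1 for fatty acid genes. Bile duct epithelium lines the ducts that carry bile, in which cholesterol and the bile acids made from it leave the liver.

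The counts summed to 14728814 in shMBD2 and 14467406 in shNC. MBD2, the target of the knockdown, had 365 counts in shMBD2 and 1013 in shNC, a log2FC (shMBD2 over shNC, after scaling for library size) of -1.48 with an interval from -1.66 to -1.31. All 5 bile duct epithelial markers were detected in both libraries and summed to 1282 TPM in shMBD2 and 1438 TPM in shNC (TPM being the deposited level per gene length, scaled to the library). They differed in direction. KRT7 (11632 counts in shMBD2 and 12975 in shNC), SOX9 (264 and 435) and EPCAM (111 and 162) were lower in shMBD2, and CDH1 (2342 and 1762) and KRT19 (119 and 70) were higher. The part of these differences in the results below was not tested. Of 18 markers of leukocytes, fibroblasts, endothelium and adipocytes, none exceeded 1 TPM in either library. Of 5 hepatocyte markers, ALB, APOA1, TTR and APOB had 3 counts or fewer, while FGB, which encodes a fibrinogen chain, had 473 counts in shMBD2 and 1569 in shNC. With a single library per condition, the differences have no replicate check, and no test was made. Each interval is an exact 95% interval of how a gene's reads split between the libraries, so it covers counting error only. In RNA from whole cultures, fewer expressing cells and less RNA per cell cannot be told apart.

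The sterol and fatty acid genes as a set were lower in shMBD2. The log2FC was below 0 in 25 of the 32 genes and above 0 in 7. Over the 17545 genes with at least 10 counts it was below 0 in 8963 and above 0 in 8582. Of the 7, SQLE, SCAP, ACLY and FASN lie so near 0 that they turn below it with the deposited TPM. The median of the 32 was -0.33 against -0.0082 over the 17545 genes. In 9 genes it was below -0.5 (a level at least 1.41-fold lower), where the background is 13.2% of all genes, and in none was it above 0.5, where the background is 12.8%. The 9 were SCD, INSIG1, CYP51A1, FADS2, ACAT2, SREBF1, SREBF2, LSS and ACSS2. SCD alone was below -1, against 5.07% of all genes, and none was above 1, against 5.48%. In 20 of the 32 the whole counting interval lay below 0, against 18.4% of all genes, and in none did it lie above 0, against 19.7%. The members just inside and just outside the -0.5 line were ACSS2 at -0.51 and HMGCS1 at -0.4999, so the count of 9 turns on small differences. Since the list was drawn up with earlier results of these libraries known, these shares describe it and are not independent evidence of its direction.

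**Figure D1:**
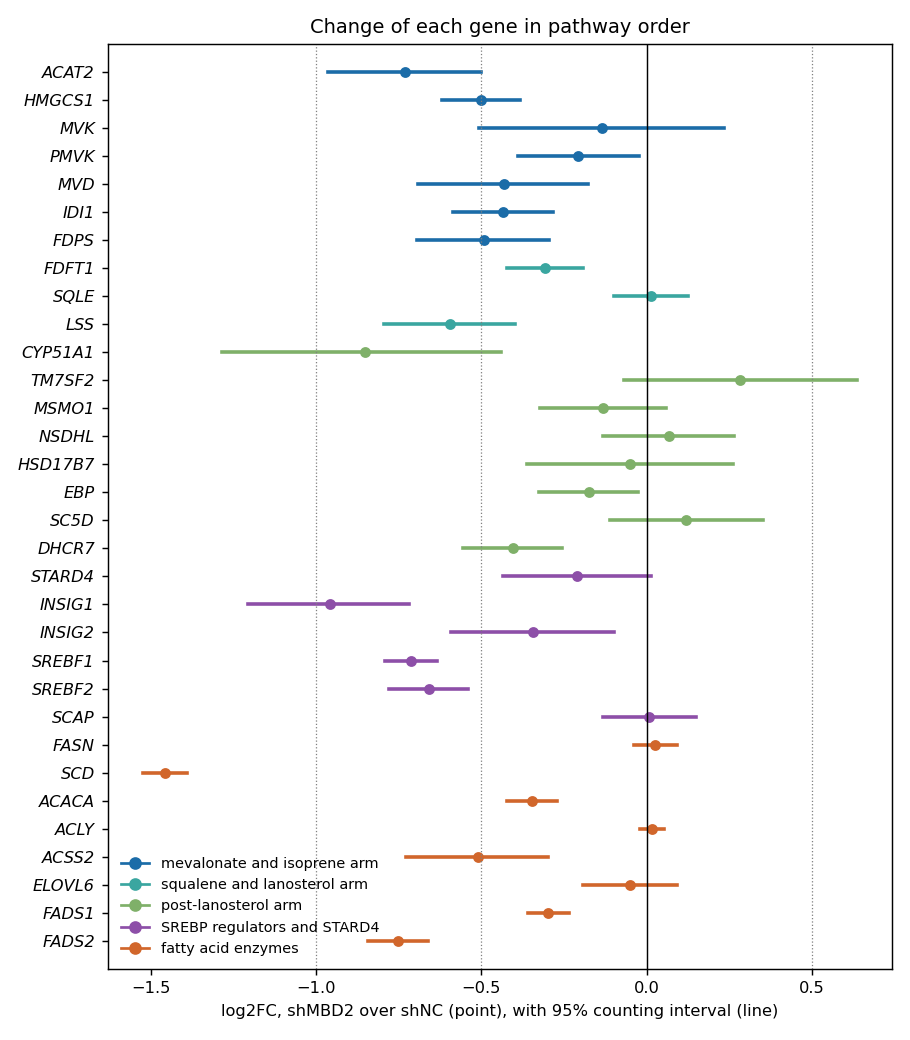
Log2FC of shMBD2 over shNC for the 32 genes in pathway order, 1 library each. Points are the log2FC, lines the 95% counting intervals, colours the groups, and dotted lines mark -1, -0.5 and 0.5. SCD sits apart at -1.46, INSIG1 follows at -0.96, and SQLE, SCAP, FASN and ACLY lie next to 0.

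Genes with many reads vary less between the libraries, so the well counted members were set beside genes of like depth. Among the 5864 genes whose counts in both libraries came to 1000 or more, 2.95% were below -0.5 and 0.375% below -1, and 26.8% had an interval below 0. Of the 16 members at this depth, 4 were below -0.5 (SCD, FADS2, SREBF1 and SREBF2), SCD was below -1, and 11 had an interval below 0. From the most negative log2FC of the 5864, SCD ranked 8, FADS2 50, SREBF1 64, SREBF2 83 and HMGCS1 175. SQLE, ACLY and FASN stood in the middle, at ranks 2942, 2972 and 3132.

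**Figure D2:**
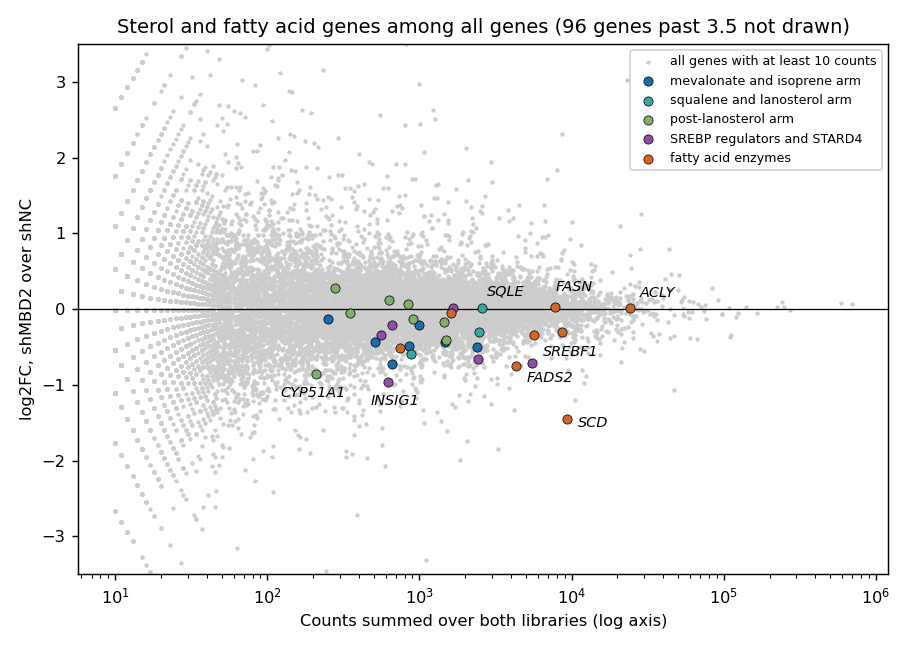
Log2FC of shMBD2 over shNC against the total counts of a gene in both libraries (log axis). Grey points are genes at 10 counts or more and coloured points the 32 sterol and fatty acid genes; 96 genes beyond 3.5 in either direction are not drawn. Most coloured points lie at or below 0, and SCD lies below nearly all genes of its depth.

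In sterol synthesis, 14 of the 18 enzymes had a log2FC below 0, against 8963 of all 17545 genes, and the median was -0.26. The intervals of 11 lay below 0, against 18.4% of all genes, and those of the other 7 included 0. The lower genes were spread unevenly along the route. In the mevalonate and isoprene arm, from ACAT2 to FDPS, all 7 enzymes had a log2FC below 0, 6 intervals lay below 0 and the median was -0.44. In the arm from squalene to lanosterol 2 of 3 intervals lay below 0. In the arm after lanosterol 3 of 8 did, with a median of -0.091.

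ACAT2, the cytosolic thiolase that joins acetyl-CoA units at the entry of the route, had 249 counts in shMBD2 and 411 in shNC. Its log2FC was -0.73 (interval -0.96 to -0.50), the lowest of this arm. In the deposited positions ACAT2 overlaps SOD2 on the opposite strand along 11.7% of its span. It overlaps TCP1, also opposite, along 3.27%, and TCP1 had 4639 counts in shMBD2 and 4399 in shNC. SOD2 had 7248 counts in shMBD2 and 1447 in shNC, the reverse direction, and whether the counting used strand is not given in the sources used here. HMGCS1, the cytosolic HMG-CoA synthase of the next step, had 996 counts in shMBD2 and 1400 in shNC, or 49.7 and 71.7 TPM. Its level in shMBD2 was 70.7% of that in shNC (interval of the log2FC -0.62 to -0.38).

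MVK and PMVK add phosphates to mevalonate. MVK had the second lowest level of the 32 in shMBD2, with 5.07 TPM there and 5.68 TPM in shNC, with a log2FC of -0.14 (interval -0.51 to 0.23). MMAB overlaps 2.58% of MVK on the opposite strand and had 204 and 236 counts. PMVK had 462 and 530 counts and a log2FC of -0.21 (interval -0.39 to -0.024). MVD, which makes the first isoprene unit, had 219 counts in shMBD2 and 294 in shNC, a log2FC of -0.43 (interval -0.69 to -0.18). IDI1, which isomerises that unit, had 625 and 840 counts and nearly the same log2FC, -0.44 (interval -0.59 to -0.28). FDPS joins isoprene units to farnesyl diphosphate, where the routes to sterols and to prenylated proteins part. It had 356 counts in shMBD2 and 498 in shNC, a log2FC of -0.49 (interval -0.69 to -0.29). The 7 enzymes of this arm summed to 226 TPM in shMBD2 and 307 TPM in shNC. From HMGCS1 to FDPS, apart from MVK and PMVK, the enzymes thus lay close together, between -0.4999 and -0.43.

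The steps from farnesyl diphosphate to lanosterol diverged. FDFT1, squalene synthase, had 1102 counts in shMBD2 and 1355 in shNC and a log2FC of -0.31 (interval -0.42 to -0.19). SQLE, the squalene epoxidase and a control point of the route, had 1298 and 1279 counts, 76.7 and 77.5 TPM, and a log2FC of 0.012 (interval -0.10 to 0.12). LSS, which closes the sterol rings, had 351 counts in shMBD2 and 527 in shNC, or 12.4 and 19.2 TPM, and a log2FC of -0.59 (interval -0.79 to -0.40). The log2FC of HMGCS1 was lower than that of SQLE by a difference of -0.51, with a 95% counting interval of the difference from -0.67 to -0.35, a pair chosen after the values were seen. SQLE was thus the sterol enzyme with over 1000 summed counts that did not share the lower level.

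After lanosterol, CYP51A1, the lanosterol demethylase, had the lowest log2FC of any sterol enzyme. It had 75 counts in shMBD2 and 135 in shNC, or 4.09 and 7.55 TPM, and on so few reads the interval around its log2FC of -0.85 reached from -1.28 to -0.44. DHCR7, which reduces 7-dehydrocholesterol to cholesterol at the end of the route, had 641 and 844 counts and a log2FC of -0.41 (interval -0.56 to -0.26). EBP, a sterol isomerase, had 685 and 769 counts and a log2FC of -0.18 (interval -0.33 to -0.025).

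The other 5 enzymes of this arm had intervals that included 0. MSMO1, the sterol methyl oxidase, had 436 counts in shMBD2 and 475 in shNC. NSDHL and HSD17B7, which act at the same demethylation, had 433 and 411 counts and 172 and 177 counts. SC5D, the lathosterol desaturase, had 327 and 299 counts. Their log2FC ran from -0.13 for MSMO1 to 0.12 for SC5D. TM7SF2, a sterol reductase, had 153 counts in shMBD2 and 125 in shNC, and its log2FC of 0.28 (interval -0.068 to 0.64) was the highest of the 32. VPS51 overlaps 0.352% of TM7SF2 on the same strand and had 587 and 620 counts.

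Both SREBP genes had fewer counts in shMBD2. SREBF1 had 2097 counts in shMBD2 and 3415 in shNC, or 78.8 and 132 TPM, a log2FC of -0.71 (interval -0.79 to -0.63). SREBF2 had 945 and 1484 counts, a log2FC of -0.66 (interval -0.78 to -0.54). The level in shMBD2 was thus 61.0% of that in shNC for SREBF1 and 63.3% for SREBF2. The log2FC of SREBF1 minus that of SREBF2 was -0.053, with a counting interval from -0.19 to 0.089 that included 0. The gene counts do not separate SREBP-1a from SREBP-1c, whose transcripts differ in their first exon. On the opposite strand, RAI1 overlaps 3.96% of SREBF1 and had 1653 and 1625 counts.

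INSIG1, the retention protein whose own gene is a target of SREBP, had 213 counts in shMBD2 and 412 in shNC, or 12.4 and 24.6 TPM. Its level in shMBD2 was 51.4% of that in shNC, and its log2FC of -0.96 (interval -1.21 to -0.72) was second to SCD among the 32. INSIG2, the related retention protein, had 248 and 313 counts and a log2FC of -0.34 (interval -0.59 to -0.10). The difference between them was -0.61, with a counting interval from -0.95 to -0.28. In shNC the TPM of INSIG1 was above that of INSIG2, 24.6 against 17.6, and in shMBD2 it was below, 12.4 against 13.6. SCAP, the sterol-sensing escort, had 836 counts in shMBD2 and 826 in shNC and a log2FC of 0.0085 (interval -0.13 to 0.15). STARD4, a cytosolic carrier of sterol, had 307 and 353 counts and a log2FC of -0.21 (interval -0.44 to 0.014). The median of these 6 genes was -0.50, and 3 of them were below -0.5, against 13.2% of all genes.

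The promoters of these genes were searched for the letters through which SREBP and its partner NF-Y are known to bind. RefSeq (GRCh38.p14) gave windows of 300 bases, from 250 before to 50 after the start, for 28 of the 32 genes. The SREBP motif TCACNCCAC, read on both strands, was found in 1 of the 28, SREBF2, against 1.42% of 10674 genes with at least 10 counts and a window. The NF-Y motif CCAAT, also on both strands, was found in 21 of the 28, against 42.8% of those genes. It was present in 13 of the 18 with a counting interval below 0 and in 8 of the 10 others. The intervals of these others included 0, so this is not a split by direction. Whether the motif goes with direction was not tested. A match is a run of letters and not evidence of binding, and SREBP sites with other letters or outside the windows were not searched.

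The SREBF2 promoter is shown because it holds both motifs, and 5 further promoters because their genes had lower counts in shMBD2. A gene may hold further matches. Each run reads 5′ to 3′ on the strand of the gene, with the matched motif in capitals and ATTGG being the reverse complement of CCAAT.
SREBF2, SREBP motif 133 to 125 bases before the start, chr22:41832962-41832990, plus strand: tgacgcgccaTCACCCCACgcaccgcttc
SREBF2, CCAAT 106 to 102 bases before the start, chr22:41832989-41833013, plus strand: tcgctcgcccATTGGctgagatgag
INSIG1, CCAAT 170 to 166 bases before the start, chr7:155297698-155297722, plus strand: ccggcctcccATTGGttgcggccgc
HMGCS1, CCAAT 100 to 96 bases before the start, chr5:43313498-43313522, minus strand: accggccgcgATTGGctgtgggagc
FDPS, CCAAT 51 to 47 bases before the start, chr1:155308805-155308829, plus strand: ccgcgggcacATTGGgagttgtagt
LSS, CCAAT 150 to 146 bases before the start, chr21:46228910-46228934, minus strand: cggcgctctgATTGGttgcgtgggc
SCD, CCAAT 186 to 182 bases before the start, chr10:100347037-100347061, plus strand: ttcccttcggCCAATgacgagccgg

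In fatty acid synthesis SCD and FADS2, both desaturases, had the largest differences of the 8 enzymes, while for ACLY, FASN and ELOVL6 the counts showed none beyond counting error. SCD (stearoyl-CoA desaturase), which makes monounsaturated fatty acids, had 2501 counts in shMBD2 and 6819 in shNC. Its TPM was 81.6 against 228, and its log2FC of -1.46 (interval -1.52 to -1.39) was a level 2.74-fold lower. The gene lies on the plus strand of chromosome 10, from 100347124 to 100364834 in GENCODE 29 (GRCh38). This start differs from the RefSeq start of the promoter window shown above. SCDP1, a processed copy of SCD, had 0 counts in shMBD2 and 4 in shNC. SCD5, the other human stearoyl-CoA desaturase, chosen for this comparison after its values were seen, had 391 and 406 counts and a log2FC of -0.063. The difference between SCD and SCD5 was -1.39 (interval -1.60 to -1.18).

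FADS1 and FADS2, the desaturases of polyunsaturated fatty acids, both had fewer counts in shMBD2. FADS2 had 1603 counts in shMBD2 and 2682 in shNC, a log2FC of -0.75 (interval -0.84 to -0.66). FADS1 had 3909 and 4774 counts, 151 and 189 TPM, and a log2FC of -0.30 (interval -0.36 to -0.24). FADS2 was lower than FADS1 by a difference of -0.45, with a counting interval from -0.56 to -0.35. In the deposited positions FADS1 lies wholly within the span of FADS2 on the opposite strand, so the split of reads between them is uncertain if the counting ignored strand. FEN1 overlaps 5.73% of FADS2 on the same strand and had 1360 and 1286 counts.

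ACLY, which makes cytosolic acetyl-CoA from citrate, had the highest level of the 32, at 494 TPM in shMBD2 and 498 TPM in shNC. It had 12251 and 12051 counts and a log2FC of 0.015 (interval -0.022 to 0.051). FASN, the fatty acid synthase, had 3959 counts in shMBD2 and 3863 in shNC and a log2FC of 0.027 (interval -0.038 to 0.091). ELOVL6, which elongates its product, had 795 and 818 counts and a log2FC of -0.050 (interval -0.19 to 0.093). The intervals of all 3 genes included 0, and the bound furthest from 0 was -0.193, for ELOVL6. ACACA, the carboxylase that makes malonyl-CoA, had 2502 and 3163 counts and a log2FC of -0.35 (interval -0.42 to -0.27). ACSS2, which makes acetyl-CoA from acetate, had 307 counts in shMBD2 and 435 in shNC and a log2FC of -0.51 (interval -0.73 to -0.30). GGT7 overlaps 1.28% of ACSS2 on the opposite strand and had 227 and 299 counts. Over the 8 enzymes the median was -0.32. Their intervals lay below 0 in 5 and included 0 in 3. The background below 0 was 18.4% of all genes. It was 26.8% of genes with 1000 summed counts or more, a depth that all but ACSS2 reached.

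In level per gene length, the 32 genes ranged from 4.09 TPM (CYP51A1) to 494 TPM (ACLY) in shMBD2 and from 5.68 TPM (MVK) to 498 TPM (ACLY) in shNC. The median was 33.4 TPM in shMBD2 and 41.3 TPM in shNC, and 30 of the 32 were at or above 10 TPM in each library. Summed over all 32, the level was 1763 TPM in shMBD2 and 2243 TPM in shNC, which is 21.4% lower. SCD made up 30.5% of that difference in TPM, and without it the sum was 16.6% lower. The order of the most abundant genes changed with SCD, which stood next after ACLY in shNC and after ACLY, FADS1 and FDFT1 in shMBD2.

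**Figure D3:**
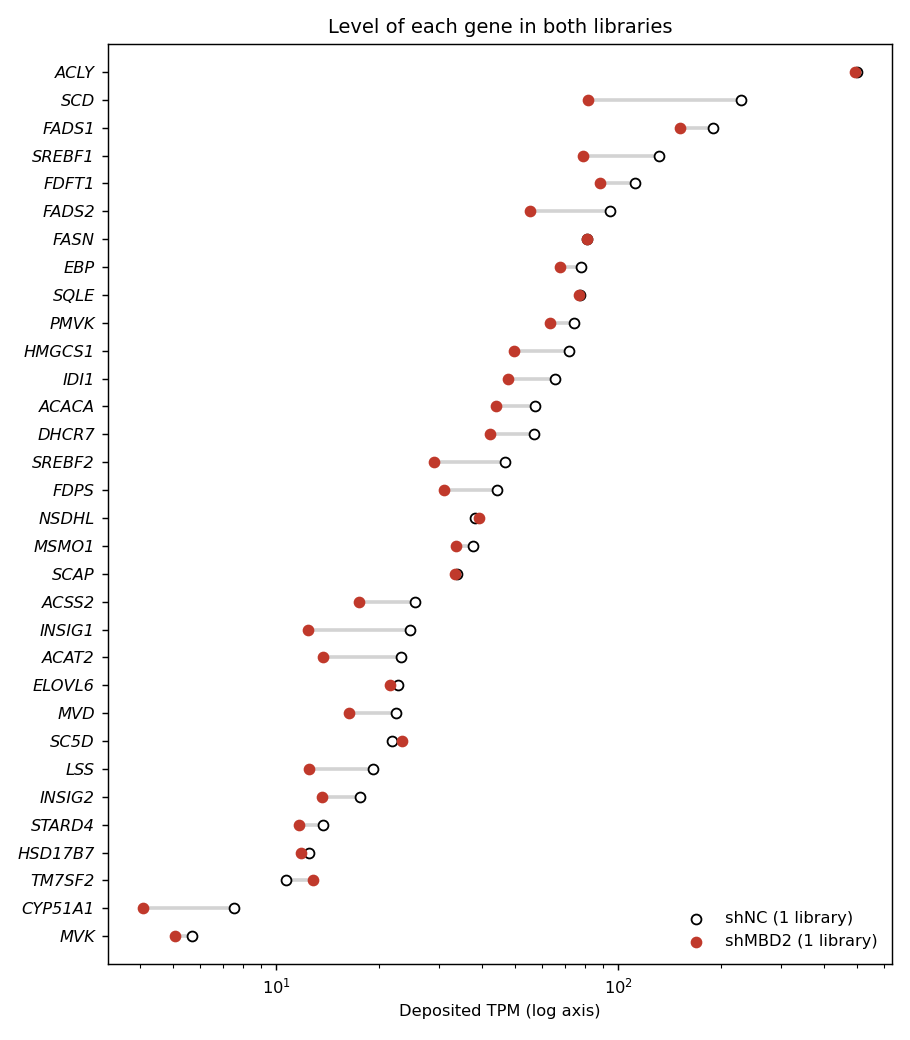
Deposited TPM (log axis) of the 32 genes in shNC (open circles) and shMBD2 (filled circles), 1 library each, in order of the shNC level. SCD spans the widest gap, from 228 TPM in shNC to 81.6 TPM in shMBD2, and ACLY, FASN and SQLE have nearly the same level in both.

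Lists of genes around the pathway, drawn up together with the 32, had medians between -0.059 and 0.33. For the counts of intervals below, 19.7% of all genes with at least 10 counts had an interval above 0 and 18.4% below. At 1000 counts or more, 1784 of 5864 intervals lay above 0 and 1569 below. Of 14 genes of SREBP processing and sterol sensing, none was past 0.5 or -0.5, against 12.8% and 13.2% of all genes. Their intervals lay above 0 in 6 and below in 2, and the median was 0.14. MBTPS1 and MBTPS2, the Golgi proteases that release SREBP, had 2367 and 1624 counts in shMBD2 and 2499 and 1718 in shNC, with a log2FC of -0.087 for MBTPS1 and -0.090 for MBTPS2. C12orf49 (SPRING1), a regulator of SREBP cleavage, had 515 and 570 counts. The lowest was RNF5, a ubiquitin ligase of the endoplasmic reticulum, at -0.42, and the highest were SEC24D, a coat protein of vesicles that leave it, at 0.48 and NPC2, a lysosomal sterol carrier, at 0.38. Of 9 genes of sterol-regulated protein degradation, 4 intervals lay above 0 and 1 below, with a median of 0.11. The one below was that of MARCHF6, a ligase that acts on squalene epoxidase, with 2727 counts in shMBD2 and 3056 in shNC. RNF145 was the highest at 0.48, followed by UBE2G2 at 0.26, and RNF139 was the next lowest at -0.0030, a value that turns above 0 with DESeq2 size factors.

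**Figure D4:**
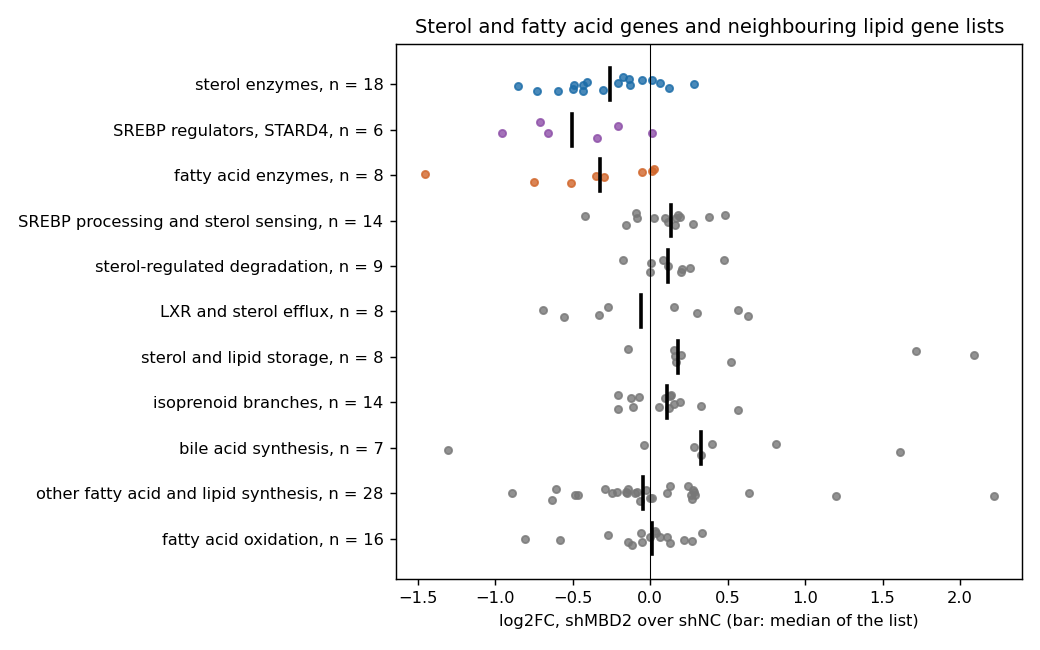
Log2FC of shMBD2 over shNC for the sterol and fatty acid genes (coloured, in 3 groups) and for 8 neighbouring lipid gene lists (grey, genes with at least 10 counts). Points are genes, bars the median of each list and n the genes drawn. The medians of the coloured groups are -0.26, -0.50 and -0.32, and those of the grey lists lie between -0.059 and 0.33.

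The genes around sterol export were mixed. Of 8 genes of sterol efflux and its LXR regulators with at least 10 counts, 3 intervals lay below 0 and 2 above, against 18.4% and 19.7% of all genes. ABCA1, the cholesterol exporter, had 592 counts in shMBD2 and 477 in shNC, a log2FC of 0.30 (interval 0.13 to 0.48). ABCG1, a related exporter, had 62 and 100 counts and a log2FC of -0.69 (interval -1.18 to -0.23). MYLIP, a ligase that LXR induces, had 175 and 256 counts and a log2FC of -0.56. NR1H3, which encodes LXR alpha, had 291 and 195 counts, 18.6 and 12.8 TPM, and a log2FC of 0.57 (interval 0.30 to 0.84). NR1H2, which encodes LXR beta and is named here after its values were seen, went the other way. It had 1073 and 1340 counts, 78.8 and 101 TPM, and a log2FC of -0.33 (interval -0.45 to -0.21). The known LXR targets ABCA1, ABCG1 and MYLIP thus did not share 1 direction, and neither did the LXR genes.

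In sterol and lipid storage, 7 of 8 genes had a log2FC above 0, against 8582 of all 17545. The median was 0.18 and 5 intervals lay above 0, against 19.7% of all genes. PLIN2, the coat protein of lipid droplets, had 717 counts in shMBD2 and 217 in shNC, or 63.6 and 19.7 TPM, a log2FC of 1.71 (interval 1.49 to 1.94). SOAT1, which esterifies cholesterol for storage, had 1600 and 1421 counts and a log2FC of 0.16 (interval 0.058 to 0.27). NCEH1, which hydrolyses cholesterol esters, was at 0.20 and DGAT1, which makes triglyceride, at 0.15 (interval -0.050 to 0.36). LIPA, the lysosomal lipase, was the lowest at -0.14.

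Of 28 other genes of fatty acid and lipid synthesis, 9 intervals lay below 0 and 7 above, against 18.4% and 19.7% of all genes. Their median was -0.044. ELOVL2, which elongates polyunsaturated fatty acids, had 356 counts in shMBD2 and 656 in shNC, a log2FC of -0.89 (interval -1.08 to -0.70). It was lower than ELOVL6 by a difference of -0.84 (interval -1.07 to -0.61), a comparison chosen after the values were seen. LPIN1, a phosphatidate phosphatase, had 482 and 744 counts and a log2FC of -0.63. ELOVL5, an elongase of polyunsaturated fatty acids, was at -0.15. ACACB, the mitochondrial counterpart of ACACA, had 404 and 447 counts and a log2FC of -0.15 (interval -0.35 to 0.043), and the difference of ACACA from it, also chosen afterwards, was -0.19 with an interval from -0.40 to 0.016. In the opposite direction, ACSL4 had 2878 counts in shMBD2 and 1243 in shNC, a log2FC of 1.20, and ACSL5 had 147 and 31, a log2FC of 2.22 (interval 1.67 to 2.85). Both activate long-chain fatty acids by joining them to CoA. The related ACSL3 and ACSL1 are named here after their values were seen. ACSL3 was lower, with 3085 counts in shMBD2 and 4291 in shNC, a log2FC of -0.48 (interval -0.55 to -0.42). ACSL1 had 698 and 585 counts and a log2FC of 0.25 (interval 0.085 to 0.41).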

How the data were processed

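The submitters' processing notes name fastp, HISAT2 2.1.0, featureCounts, DESeq 1.18.1 and the build GRCh38.p13, with no role for each. The annotation and the use of strand are not given in the sources used here, and positions in the tables differ from GENCODE 29 (GRCh38) for all 32 genes. The authors deposited a table of raw counts by gene and a second one of TPM that they computed. Lines without a gene (46 of 63723) and rows repeating a symbol and its counts (7039) were dropped, which left 56638 genes. Counts were scaled with TMM (edgeR 4.0.16, R 4.3.3). Log2FC used a prior count of 0.5 and genes with at least 10 summed counts. Intervals are exact Clopper-Pearson (95%, scipy 1.17.1), and those of a difference between genes are Woolf intervals. Scripts were checked on simulated counts. DESeq2 1.42.0 gave 1 alternative scaling. The genes named are MBD2, the 32 genes and, from each neighbouring list, fixed names and the 2 highest and 2 lowest with at least 100 counts in the higher library. Genes said to be named or chosen after their values were seen fall outside this rule. The 32 genes and the lists were chosen with earlier results of these data known.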

Additional observations from a re-analysis of the deposited data

How the results depend on the processing

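The counts and medians reported for the 32 genes kept their direction, and the counts stayed within 1.5 times, under the 9 alternatives: DESeq2 size factors, total counts, upper-quartile factors, log2 of TPM plus 0.1 or 1, prior counts of 2 and 0.1, and filters of at least 1 count or of at least 100 counts in the higher library. The filters leave the log2FC of a gene unchanged and keep all 32 genes, so they could change only the shares of all genes. The number of genes below -0.5 lay between 9 and 11, with 10 at a prior count of 0.1, since HMGCS1 and FDPS lie next to that line. The medians ran from -0.32 to -0.35 for all 32, from -0.25 to -0.28 for the sterol enzymes, from -0.49 to -0.53 for the regulators and from -0.31 to -0.35 for the fatty acid enzymes. The deposited TPM shift all genes by -0.028 on the log2 scale against the scaled counts. None of 631 alternative values of single genes named by the stated rule moved past its counting interval. Those under the filters repeat the main value by construction. The sign turned only in genes next to 0: SQLE, SCAP and ACLY with total counts and TPM (SCAP also with upper-quartile factors), FASN with TPM, at -0.0016 with 0.1 added, and RNF139 with DESeq2 size factors. The shares of all genes below -0.5, above 0.5 and below -1 were 13.2%, 12.8% and 5.07%. They were 23.0%, 23.3% and 15.8% with at least 1 count, 5.33%, 5.61% and 0.998% with at least 100 counts in the higher library, and 2.95%, 3.63% and 0.375% with at least 1000 in all. With log2 of TPM plus 1, 8.03% were above 0.5 and 1.94% below -1. No paired analysis was possible because neither arm holds more than a single library. Genes with few reads, such as CYP51A1, MVK and TM7SF2, have wide intervals, and nothing here measures how cultures vary.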

Other observations

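In the isoprenoid branches other than sterol, protein prenylation included, 14 genes had a median log2FC of 0.11. Of their intervals 3 lay above 0 and 2 below, against 19.7% and 18.4% of all genes. PDSS1, which makes the side chain of ubiquinone, had 279 counts in shMBD2 and 187 in shNC (log2FC 0.57, interval 0.30 to 0.84), and RABGGTB, a subunit of the enzyme that prenylates Rab proteins, had 1311 and 1036 (log2FC 0.33). GGPS1, the geranylgeranyl diphosphate synthase, was the lowest at -0.21, next to COQ2 at -0.21.

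Of 12 bile acid synthesis genes, 7 had at least 10 counts. CYP7A1, CYP8B1 and AKR1D1, which hepatocytes use and which were named here after their values were seen, had 0 counts in both libraries, which allows up to 3, and CYP27A1 had 1 and 2. BAAT, which conjugates bile acids, had 57 counts in shMBD2 and 141 in shNC, a log2FC of -1.31 (interval -1.79 to -0.86). HSD3B7 had 121 and 91 counts (log2FC 0.40, interval -0.0021 to 0.81) and SLC27A5 149 and 152.

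Fatty acid oxidation genes had a median of 0.012 over 16 genes, with 2 intervals above 0 and 2 below, against 19.7% and 18.4% of all genes. PPARGC1A, a coactivator of mitochondrial genes, had 328 counts in shMBD2 and 489 in shNC (log2FC -0.58). ACADVL and PDK4 were the highest with at least 100 counts, at 0.27 and 0.22. CPT1A, the carnitine transferase that admits fatty acids to mitochondria, had 1382 and 1347 counts, and CPT2 had 140 and 168.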
